A study of Mus musculus with 6 samples.

Results

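The aryl hydrocarbon receptor (AHR) and 5 genes tied to it were examined by RNA sequencing of whole bone marrow from 3 *MxCDX2* and 3 control mice. The 6 genes were listed by symbol, namely the receptor gene *Ahr*, its partner *Arnt*, its repressor *Ahrr* and the targets *Tiparp*, *Cyp1b1* and *Nqo1*. Each symbol matched 1 Ensembl identifier among the 39179 genes counted, and all 6 genes were among the 15980 that passed the filter on low counts. The 3 *MxCDX2* mice (*RsCDX2::Mx1Cre*) carried the human *CDX2* coding sequence at *Rosa26* behind a loxP-flanked stop sequence, together with the Cre recombinase under the interferon-inducible *Mx1* promoter, which is not restricted to blood cells. The control group held 1 *RsCDX2* mouse (control mouse 1), 1 *Mx1Cre* mouse (control mouse 2) and 1 wild-type mouse (control mouse 3), so that genotype and individual cannot be told apart among the controls. All 6 were littermates that had received 3 injections of the interferon inducer poly(I:C), 10 µg per g of body weight each, at 3 months of age, and whole marrow was taken 6 weeks later.

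AHR is a transcription factor of the bHLH-PAS family that waits in the cytosol in a complex with the chaperone HSP90. On binding a planar aromatic ligand, such as dioxin or certain breakdown products of tryptophan, it moves to the nucleus, pairs with ARNT and binds xenobiotic response elements, whose core letters are GCGTG. Among its classical targets are cytochrome P450 enzymes of the CYP1 family, the quinone reductase NQO1, and the feedback inhibitors AHRR, which competes for ARNT, and TIPARP, which ADP-ribosylates the receptor. In blood, AHR is known for roles in stem cell quiescence and in the differentiation of myeloid and lymphoid cells.

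The letters just upstream of the target genes are shown because the targets are grouped here by a shared regulator. Of the 6 genes, 5 had an entry in the RefSeq promoter table (GRCm38.p6), and *Ahr* had none. The 250 bases before the RefSeq transcription start are printed for the repressor and the 3 targets on the strand of the gene. Each GCGTG, or CACGC where it lies on the opposite strand, is in capitals.
Ahrr: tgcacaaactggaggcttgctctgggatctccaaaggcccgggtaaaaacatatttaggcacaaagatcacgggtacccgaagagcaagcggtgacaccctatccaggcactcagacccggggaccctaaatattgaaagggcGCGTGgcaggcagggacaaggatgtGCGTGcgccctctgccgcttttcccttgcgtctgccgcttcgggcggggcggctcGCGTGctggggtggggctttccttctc
Tiparp: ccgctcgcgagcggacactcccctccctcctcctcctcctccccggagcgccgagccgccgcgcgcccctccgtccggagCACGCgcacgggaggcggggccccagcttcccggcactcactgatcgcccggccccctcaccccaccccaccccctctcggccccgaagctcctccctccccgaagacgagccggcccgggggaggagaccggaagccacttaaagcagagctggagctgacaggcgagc
Cyp1b1: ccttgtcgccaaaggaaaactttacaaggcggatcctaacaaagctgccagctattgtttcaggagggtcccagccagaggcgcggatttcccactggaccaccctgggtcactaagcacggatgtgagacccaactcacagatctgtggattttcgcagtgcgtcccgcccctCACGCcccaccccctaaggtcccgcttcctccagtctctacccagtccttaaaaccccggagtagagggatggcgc
Nqo1: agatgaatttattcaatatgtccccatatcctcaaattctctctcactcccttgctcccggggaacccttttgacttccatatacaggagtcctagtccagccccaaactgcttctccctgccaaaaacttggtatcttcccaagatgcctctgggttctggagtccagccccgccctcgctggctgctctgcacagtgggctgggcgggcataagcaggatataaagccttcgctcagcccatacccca

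These windows lie at chr13:74292332-74292581 on the minus strand for *Ahrr*, chr3:65528197-65528446 on the plus strand for *Tiparp*, chr17:79715062-79715311 on the minus strand for *Cyp1b1* and chr8:107403206-107403455 on the minus strand for *Nqo1*. *Ahrr* held 3 copies of the core, and the copy closest to the start, from 27 to 23 bases before it, was part of the longer form TNGCGTG. *Tiparp* and *Cyp1b1* held 1 copy each, and *Arnt*, whose window is not printed, held 1. *Nqo1* held none. Across 32851 promoter windows of the same length, searched on both strands, 28.2% held GCGTG and 4.1% held TNGCGTG, so a single core is a common find. The core of the antioxidant response element, TGACNNNGC, bound by the oxidative stress factor NRF2 (10.2% of windows), was found in *Arnt* alone of the 5. TTTATA and TTTATG, the letters of the CDX consensus (12.4% and 10.8% of windows), were found in *Nqo1* alone, as TTTATA on the opposite strand from 29 to 24 bases before the start, where the printed strand reads tataaa, the letters of a TATA box. A missing match says only that the letters are not in these 250 bases. The starts are those of RefSeq, and the *Tiparp* window runs past the gene start at chr3:65528410 given below.

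The libraries held between 38646101 and 49899650 reads on genes. Reads on *Cdx2*, which can include reads of the human transgene, numbered 4, 0 and 0 in control mice 1, 2 and 3 and 152 to 183 in the *MxCDX2* mice. Marker genes of the main marrow lineages were all detected. Of these 69 markers 39 passed the thresholds given below (56.5%), beside 13.6% of all tested genes. All 10 erythroid markers fell, and 3 of 5 megakaryocyte, 5 of 9 neutrophil, 4 of 7 B cell, 2 of 6 T and NK cell, 5 of 8 macrophage, 2 of 5 mast cell, basophil and eosinophil, 1 of 7 stromal and 1 of 5 endothelial markers fell, whereas 6 of 7 monocyte markers rose. The wild-type control mouse stood apart, with a summed megakaryocyte marker level of 148982 normalized counts against at most 17143 in any other mouse. In whole marrow, fewer cells of a type and less RNA per cell cannot be told apart.

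Of the 6 AHR genes, 1 passed both thresholds of the main test. *Nqo1* fell 7.50-fold in *MxCDX2* marrow, and no other member passed an absolute log2 fold change above 1 with an adjusted p-value below 0.05 (quasi-likelihood test of edgeR, adjusted by Benjamini-Hochberg over all tested genes). Among all tested genes 13.6% passed, 4.59% upward and 9.03% downward, so that 1 call in 6 is close to the background. The groups did not overlap for 1 of the 6 members, against 42.1% of all tested genes. The median log2 fold change of the 6 members was 0.11, and that of all tested genes was 0.00208. *Ahr* and *Ahrr* had fitted levels 2.19-fold and 1.97-fold those of the controls without passing the test, and *Cyp1b1* was lower with a wide spread. *Arnt* stayed within the range of the controls, and *Tiparp* did so except in *MxCDX2* mouse 1, which was higher. With DESeq2, the tool of the methods, 3 of the 6 passed (*Ahr*, *Cyp1b1* and *Nqo1*), where the background was 15.7%.

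**Figure D1:**
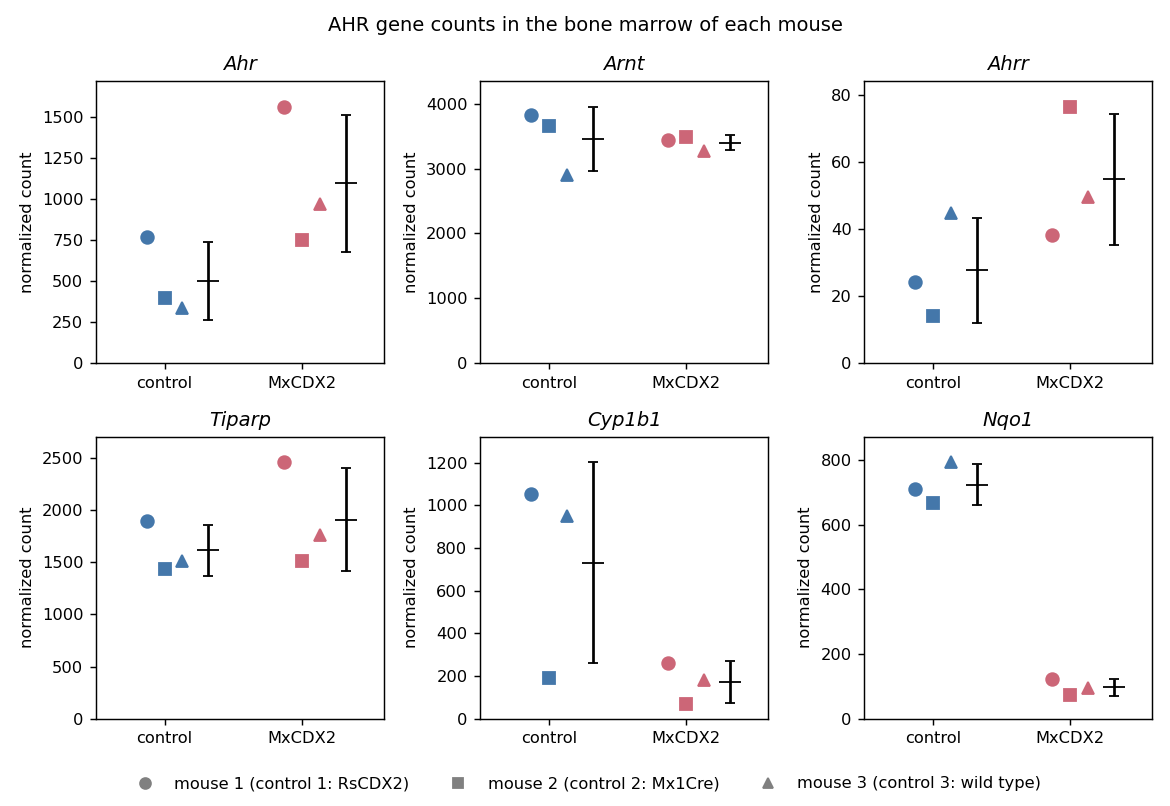
Normalized count (counts scaled to the mean library size, linear axis from 0) of each AHR gene in each mouse, with circles, squares and triangles for mice 1, 2 and 3 of a group and black bars for the group mean ± SD (n = 3). The groups are apart for *Nqo1* only, and *Cyp1b1* in control mouse 2 lies among the *MxCDX2* mice.

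*Ahr* (ENSMUSG00000019256) encodes the receptor and lies at chr12:35497974-35535038 on the minus strand (GRCm38). Its normalized counts, that is, counts scaled to the mean library size of the 6 mice after TMM normalization, were 772, 397 and 334 in control mice 1, 2 and 3. In *MxCDX2* mice 1, 2 and 3 they were 1565, 753 and 969.8. The groups overlapped, since control mouse 1 was slightly above *MxCDX2* mouse 2 (exact permutation test, two-sided p = 0.20, where 3 mice against 3 can give no less than 0.10). The log2 fold change was 1.13 (standard error, SE, 0.40, 95% interval 0.17 to 2.09, adjusted p = 0.0912). Control mouse 1, the *RsCDX2* mouse, weighed on this value, and without it the log2 fold change was 1.59 (adjusted p = 0.0369). *MxCDX2* mouse 1 weighed the other way, and without that mouse the log2 fold change was 0.79 (adjusted p = 0.234). Over the 6 fits that left out 1 mouse the adjusted p ran from 0.0369 to 0.234, and over the 7 other settings from 0.0305 with DESeq2 to 0.0923.

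Of the monocyte markers, 6 of 7 rose in the same comparison. Their summed level lay between 59284 and 73590 normalized counts in the controls and between 299822 and 369203 in the *MxCDX2* group. *Csf1r*, the receptor of the monocyte growth factor, had a log2 fold change of 2.08, beside 1.13 for *Ahr*. The 7 markers ran from 0.10 for *Cx3cr1*, which did not pass, over 1.17 for *Irf8* to 3.06 for *F13a1*. *F13a1* made up 31.5% of the sum. Per 1000 monocyte marker counts there were 5.40 to 10.7 counts of *Ahr* in control mice and 2.04 to 5.22 in *MxCDX2* mice. Within the *MxCDX2* group *Ahr* was highest in mouse 1, where the monocyte sum was lowest. The part of monocyte content in the level of *Ahr* was not tested.

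*Arnt* (ENSMUSG00000015522), at chr3:95434388-95497240 on the plus strand, encodes the partner that AHR shares with the hypoxia factors. Its normalized counts were 3826, 3664 and 2903 in the controls against 3444, 3485 and 3271 in the *MxCDX2* group. All 3 *MxCDX2* values fell inside the range of the controls. The log2 fold change was -0.03 (95% interval -0.33 to 0.27, adjusted p = 0.902), an interval that holds no change as large as 1 in either direction. The sign of so small a value is not fixed, and it turned to 0.10 with total counts only.

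*Ahrr* (ENSMUSG00000021575), the repressor gene, spans chr13:74211118-74292331 on the minus strand and was the least expressed member. It had 19, 14 and 49 reads in control mice 1, 2 and 3 and 36, 78 and 57 reads in *MxCDX2* mice 1, 2 and 3. After normalization these were 24.3, 13.9 and 44.7 against 38.1, 76.4 and 49.6, so that the wild-type mouse lay among the *MxCDX2* mice. The log2 fold change was 0.98 (SE 0.51, 95% interval -0.23 to 2.18, adjusted p = 0.215). Without the wild-type mouse it was 1.55 (adjusted p = 0.064), the highest of the 6 fits that left out 1 mouse. Those fits ran from 0.66 to 1.55, with adjusted p from 0.064 to 0.462. The 95% interval with all 6 mice includes 0.

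*Tiparp* (ENSMUSG00000034640), at chr3:65528410-65555518 on the plus strand, encodes the ADP-ribosyltransferase that restrains AHR. The controls had 1893, 1433 and 1515 normalized counts, against 2461, 1515 and 1758 in the *MxCDX2* group. *MxCDX2* mouse 1 was highest, as it was for *Ahr*, and the other 2 *MxCDX2* mice lay within the range of the controls. The log2 fold change was 0.24 (95% interval -0.25 to 0.74, adjusted p = 0.453), and it was 0.02 without *MxCDX2* mouse 1.

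*Cyp1b1* (ENSMUSG00000024087), at chr17:79701537-79715061 on the minus strand, encodes a cytochrome P450 that oxidizes polycyclic hydrocarbons and steroids. Control mice 1, 2 and 3 had 1053, 191 and 950.0 normalized counts. The *MxCDX2* values, in the same order of mice, were 262, 66.6 and 183. The *RsCDX2* and wild-type controls were far above every *MxCDX2* mouse, but the *Mx1Cre* control was below *MxCDX2* mouse 1. The means were 731 ± 471 and 170.4 ± 98.1 (SD, n = 3; log2 fold change -2.10, SE 0.73, 95% interval -3.85 to -0.36, adjusted p = 0.0865). Without the *Mx1Cre* mouse the log2 fold change was -2.56 (adjusted p = 0.0326). Over all fits that left out 1 mouse the adjusted p ran from 0.0326 to 0.20, and over the 7 other settings from 0.00818 with DESeq2 to 0.178.

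The summed level of 7 stromal markers was likewise highest in the *RsCDX2* and wild-type controls. It was 30907, 14114 and 53183 normalized counts in the controls against 11213, 7063 and 15016 in the *MxCDX2* group, and the *Mx1Cre* control again lay within the *MxCDX2* range. *Cxcl12*, the chemokine that retains stem cells in the marrow, made up 78.1% of this sum and was the only one of the 7 stromal markers that fell past the thresholds. The markers did not all follow the sum. *Pdgfrb*, a receptor of perivascular cells, was higher in every *MxCDX2* mouse than in every control without passing the test (log2 fold change 0.62, adjusted p = 0.28), and the other 5 overlapped between the groups. None of the 7 was at 0. Per 1000 stromal marker counts there were 34.1, 13.5 and 17.9 counts of *Cyp1b1* in the controls against 23.3, 9.43 and 12.2 in the *MxCDX2* group, and these ranges overlapped. The part of stromal content in the level of *Cyp1b1* was not tested.

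**Figure D2:**
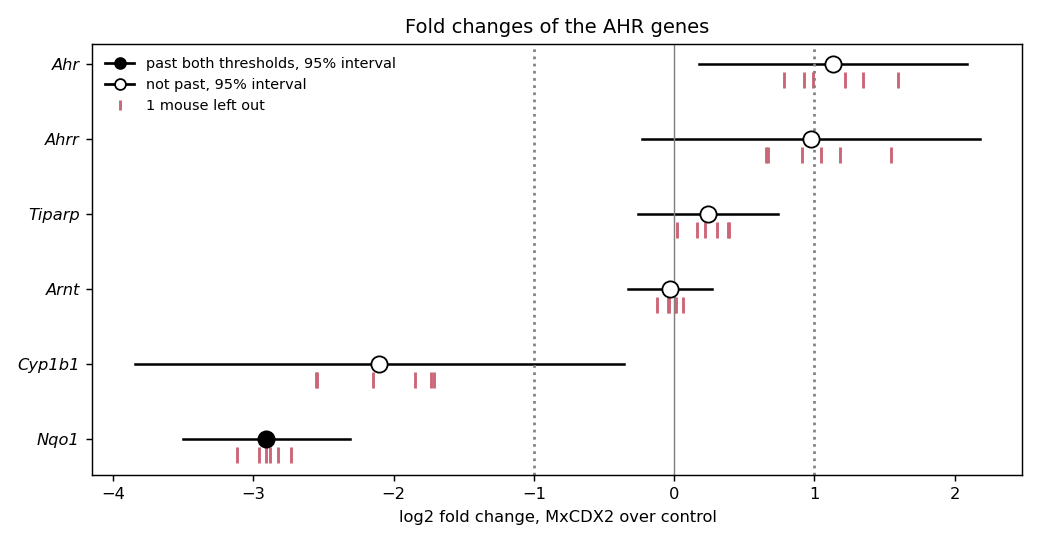
Log2 fold change of each AHR gene, *MxCDX2* over control, with its 95% interval (black) and the values with 1 mouse left out (red ticks), dotted lines marking -1 and 1. Only *Nqo1*, at -2.91, is past both thresholds, and its ticks stay between -3.11 and -2.73.

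*Nqo1* (ENSMUSG00000003849) encodes the cytosolic quinone reductase that detoxifies quinones by transferring 2 electrons at once, and lies at chr8:107388225-107403206 on the minus strand. Control mice 1, 2 and 3 had 712, 666 and 793 normalized counts. The *MxCDX2* values, in the same order of mice, were 123, 72.5 and 94.0. The groups were far apart, with the highest *MxCDX2* mouse below every control mouse, which was true of 20.7% of all tested genes. The means were 724 ± 64.3 and 96.5 ± 25.3 (SD, n = 3; log2 fold change -2.91, SE 0.25, 95% interval -3.50 to -2.31, adjusted p = 0.00159). The exact permutation test gave its smallest possible value, a two-sided p of 0.10. *Nqo1* was past the thresholds whichever mouse was left out, with log2 fold changes from -3.11 to -2.73, and under all 7 other settings.

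Erythroid markers fell with *Nqo1*. Their sum was between 844575 and 944100 normalized counts in control mice, and 108108, 26160 and 55714 in *MxCDX2* mice 1, 2 and 3, the same order within the group as *Nqo1*. None of the 10 markers was at 0, and their median log2 fold change was -3.45. Per 100000 erythroid marker counts there were 82.7, 70.6 and 93.9 counts of *Nqo1* in the controls against 114, 277 and 169 in the *MxCDX2* group. *Nqo1* thus fell less than the marker sum, of which the globin gene *Hba-a1* made up 31.6%. *Tfrc* (log2 fold change -2.13) was the only one of the 10 markers that fell less than *Nqo1* (-2.91). The part of erythroid content in the fall of *Nqo1* was not tested.

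**Figure D3:**
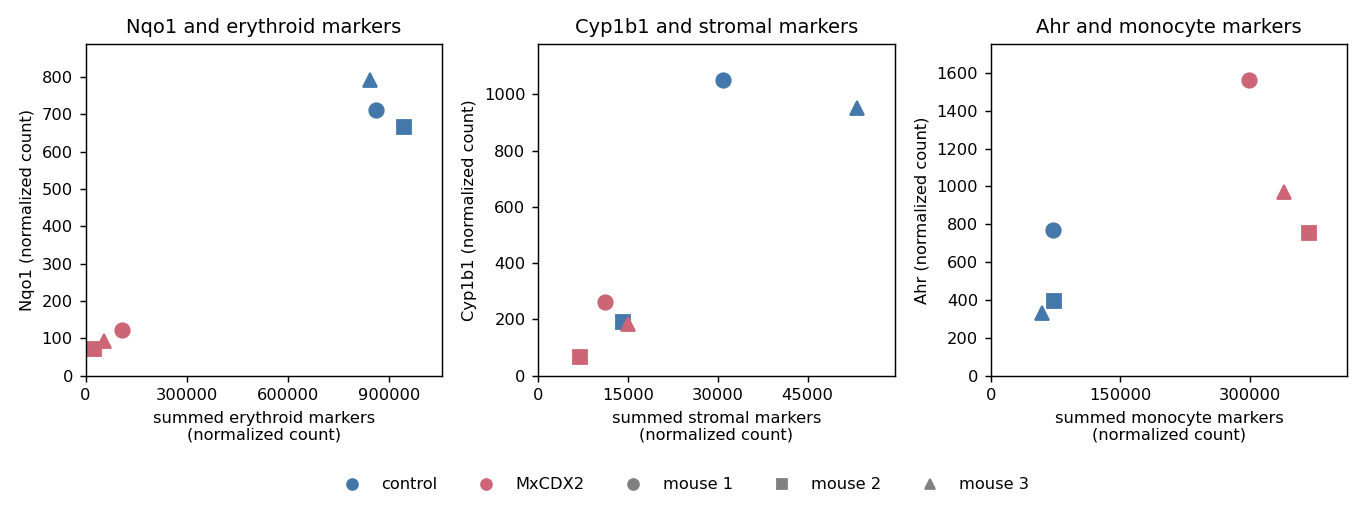
Normalized count of *Nqo1*, *Cyp1b1* and *Ahr* (vertical axes) against the summed normalized count of erythroid, stromal and monocyte markers (horizontal axes), 1 point per mouse, linear axes from 0. *Nqo1* and the erythroid sum are both low in the *MxCDX2* mice, *Cyp1b1* in control mouse 2 sits with the *MxCDX2* mice at a stromal sum of 14114, and *Ahr* is highest in *MxCDX2* mouse 1 at 1565.

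Levels were compared between genes as RPKM, that is, reads scaled to exon length and to library size. In control marrow *Nqo1* (10.2 ± 0.91 RPKM, SD, n = 3), *Arnt* (9.52 ± 1.35) and *Tiparp* (8.14 ± 1.24) came first, and each overlapped its neighbour in this order. *Cyp1b1* (2.75 ± 1.77) and *Ahr* (1.79 ± 0.84) followed and overlapped each other, and *Ahrr* was lowest at 0.064 ± 0.036. In *MxCDX2* marrow *Tiparp* (9.64 ± 2.48) and *Arnt* (9.34 ± 0.31) overlapped at the top. *Ahr* (3.91 ± 1.50) came next, above *Nqo1* (1.37 ± 0.36), *Cyp1b1* (0.64 ± 0.37) and *Ahrr* (0.13 ± 0.046), and none of these 4 overlapped the gene above it. *Nqo1* thus passed from the first place to the fourth, and *Ahr* from the fifth to the third.

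*Nqo1* is also a classical target of NRF2, the factor that KEAP1 holds back until oxidative stress releases it, and 9 other NRF2 targets were examined. Of these, 3 fell and none rose, where 9.03% of all tested genes fell and 4.59% rose. The median log2 fold change of the 9 was -1.42. *Gclm* and *Gclc*, the subunits of the enzyme that starts glutathione synthesis, fell by 1.97 (SE 0.22, adjusted p = 0.00253) and by 1.17 (SE 0.19, adjusted p = 0.00805) on the log2 scale. *Gclm* had 9656, 8792 and 10403 normalized counts in the controls against 3145, 1760 and 2451 in the *MxCDX2* group, without overlap. *Hmox1*, which encodes the heme-degrading oxygenase, had a log2 fold change of -1.52 (adjusted p = 0.0465). The wild-type mouse carried much of that value, with 26103 normalized counts against 12066 and 10062 in the other controls, and without it the log2 fold change was -0.96 and did not pass. Of the 6 fits without 1 mouse, 1 kept *Hmox1* past the thresholds.

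The other 6 targets did not pass. The cystine transporter gene *Slc7a11* had a log2 fold change of -2.44 (adjusted p = 0.10), with 3743, 1764 and 474 normalized counts in the controls against 755, 139 and 210 in the *MxCDX2* group. *Srxn1* and *Me1* stood at -1.42 (adjusted p = 0.0899) and -1.51 (adjusted p = 0.105), and DESeq2 called *Srxn1* (adjusted p = 0.0191). The thioredoxin and glutathione reductase genes *Txnrd1* (-0.15) and *Gsr* (0.18) overlapped between the groups, whereas the glucose-6-phosphate dehydrogenase gene *G6pdx* (0.31, adjusted p = 0.18) was higher in every *MxCDX2* mouse than in every control. None of the 6 NRF2 factor genes passed both thresholds. *Nfe2l2*, which encodes NRF2 itself, had 7459 ± 322 normalized counts in control mice and 7257 ± 1195 in *MxCDX2* mice (SD, n = 3), and its inhibitor *Keap1* had a log2 fold change of 0.18. *Mafg* (0.05), *Maff* (-0.25) and *Bach1* (0.06) did not pass either. *Mafk*, a small Maf partner of NRF2, was lower by a log2 fold change of -0.74 (adjusted p = 0.0135), short of the threshold of 1. *Nqo2*, the closest relative of *Nqo1*, was at 0.64 on the log2 scale (SE 0.12, adjusted p = 0.0127), with 1440 to 1807 normalized counts in control mice and 2498 to 2675 in *MxCDX2* mice, and did not reach the fold threshold either.

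**Figure D4:**
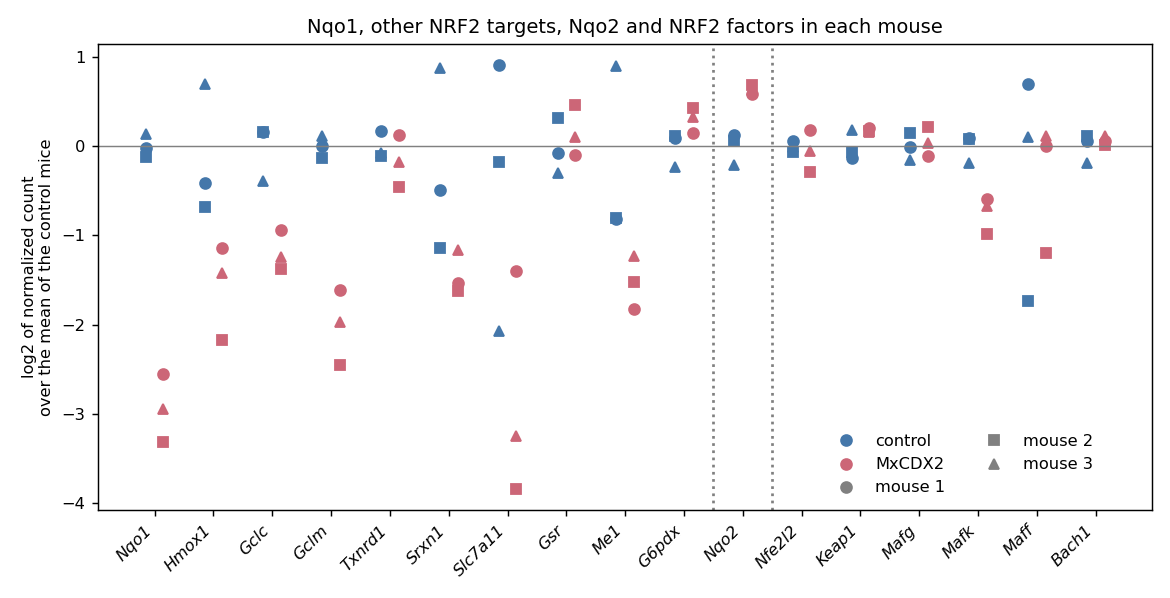
Log2 of the normalized count over the control mean for *Nqo1*, 9 other NRF2 targets, *Nqo2* and 6 NRF2 factor genes, 1 point per mouse, blue for control and red for *MxCDX2*. For *Nqo1*, *Gclm*, *Gclc*, *Hmox1*, *Srxn1*, *Me1* and *Mafk* every *MxCDX2* mouse lies below every control mouse, and for *G6pdx* and *Nqo2* every one lies above. Of all tested genes 42.1% did not overlap between the groups, 20.7% with *MxCDX2* lower. *Nfe2l2*, *Keap1* and *Bach1* lie around 0.

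A further 10 AHR-responsive genes gave no common direction. Only 6 passed the filter on low counts, and of these 1 rose and none fell, with a median log2 fold change of -0.53. Of all tested genes 4.59% rose and 9.03% fell. *Cyp1a1*, the most used readout of AHR activity, was near the floor in every mouse, with 7, 12 and 2 reads in the controls against 3, 1 and 1 in the *MxCDX2* group. *Cyp1a2* had no read in any mouse, which allows up to 3 reads per library. *Gsta1* had 0 reads in the control mice and at most 3 in an *MxCDX2* mouse, and *Ugt1a6b* had 4 to 24 reads in any mouse. *Ugt1a6a*, a glucuronosyltransferase gene, rose from 72.9 ± 3.18 to 234 ± 81.3 normalized counts (SD, n = 3; log2 fold change 1.68, SE 0.31, adjusted p = 0.0124). It shares 50.3% of its exon length with 8 other *Ugt1a* genes on the same strand, so its reads cannot be fully assigned. *Serpinb2*, a plasminogen activator inhibitor, had a log2 fold change of -2.66 (adjusted p = 0.118), where control mouse 3 stood at 1502 normalized counts and the other controls at 371 and 221. *Scin* (-1.13), *Entpd1* (-0.81), *Socs2* (0.55) and *Aldh3a1* (-0.25) did not pass, although DESeq2 called *Scin* (adjusted p = 0.0346).

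The enzymes that break down tryptophan supply AHR ligands such as kynurenine and kynurenic acid. Of 11 such genes 8 were tested, 2 rose and 1 fell, beside 4.59% and 9.03% of all tested genes. *Kyat3*, which encodes an aminotransferase that makes kynurenic acid, rose with little spread within either group. It had 188, 195 and 207 normalized counts in control mice and 789, 744 and 793 in the *MxCDX2* group (log2 fold change 1.98, SE 0.16, adjusted p = 0.00149). *Haao*, whose product oxidizes 3-hydroxyanthranilate towards NAD, rose from 986 ± 143.5 to 2169 ± 203 normalized counts (SD, n = 3; log2 fold change 1.14, adjusted p = 0.00413). *Kynu*, which encodes kynureninase, the enzyme that leads kynurenines away from kynurenic acid, fell from 259 ± 117 to 55.4 ± 29.8 (SD, n = 3; log2 fold change -2.23, adjusted p = 0.0259), with 3 of the 6 fits without 1 mouse past the thresholds. The genes of the first step towards kynurenine had few reads. *Ido1* had 2 to 9 reads in any mouse, *Ido2* had 1 read in all, and *Tdo2*, with 2 to 16 reads, had a log2 fold change of -0.06. *Aadat* had 1 read in all. *Kmo* (-0.01), *Kyat1* (-0.24), *Il4i1* (-0.25) and *Afmid* (-0.73) did not pass. *Afmid* shares 44.2% of its exon length with *Gm20708* on the same strand, so its reads cannot be fully assigned. *Il4i1* shares 85.9% with *Atf5* and *Tbc1d17* on the other strand, and the strand setting of the counting is not given.

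Of the cytosolic complex, the HSP90 genes *Hsp90aa1* (log2 fold change -0.31) and *Hsp90ab1* (0.39) and the cochaperone gene *Ptges3* (0.14) did not pass. Among the coregulator genes, *Nrip1* (-0.69) and *Ncoa1* (0.40) had adjusted p-values of 0.033 and 0.0469 without reaching the fold threshold, and *Ncoa3* (0.52), *Ep300* (0.17), *Ncoa2* (0.06), *Crebbp* (-0.01) and *Smarca4* (-0.28) did not pass. *Parp12* and *Zc3hav1*, the closest relatives of *Tiparp*, had log2 fold changes of 0.36 and -0.28.

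Of the 13 other bHLH-PAS genes 10 were tested, 1 rose and 2 fell. *Npas3*, a gene best known from the brain, had 4, 0 and 5 reads in the controls against 221, 170 and 258 in the *MxCDX2* group (log2 fold change 5.99, SE 0.75, adjusted p = 0.00354). *Npas4*, an activity-dependent gene of neurons, had 19, 245 and 423 reads in the controls against 5, 3 and 0 in the *MxCDX2* group (log2 fold change -6.31, adjusted p = 0.0175), and was past the thresholds in 4 of the 6 fits without 1 mouse. *Hif3a*, a hypoxia factor, fell from 129 ± 42.6 to 19.0 ± 6.51 normalized counts (SD, n = 3; log2 fold change -2.76, adjusted p = 0.00592). *Hif1a* (0.36) and *Epas1* (-0.95), whose products also pair with ARNT, did not pass, nor did *Arnt2* (0.94), *Npas2* (-0.90), *Npas1* (0.31) and *Arntl* (0.19), and the circadian *Clock* had a value of 0.57 (adjusted p = 0.0393). *Arntl2* had 1 to 13 reads in any mouse, *Sim2* had at most 9 and *Sim1* had none. Over all 64 genes of the pathway lists, 54 were tested and 11 passed, 5 upward and 6 downward (20.4%, beside 13.6% of all genes).

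**Figure D5:**
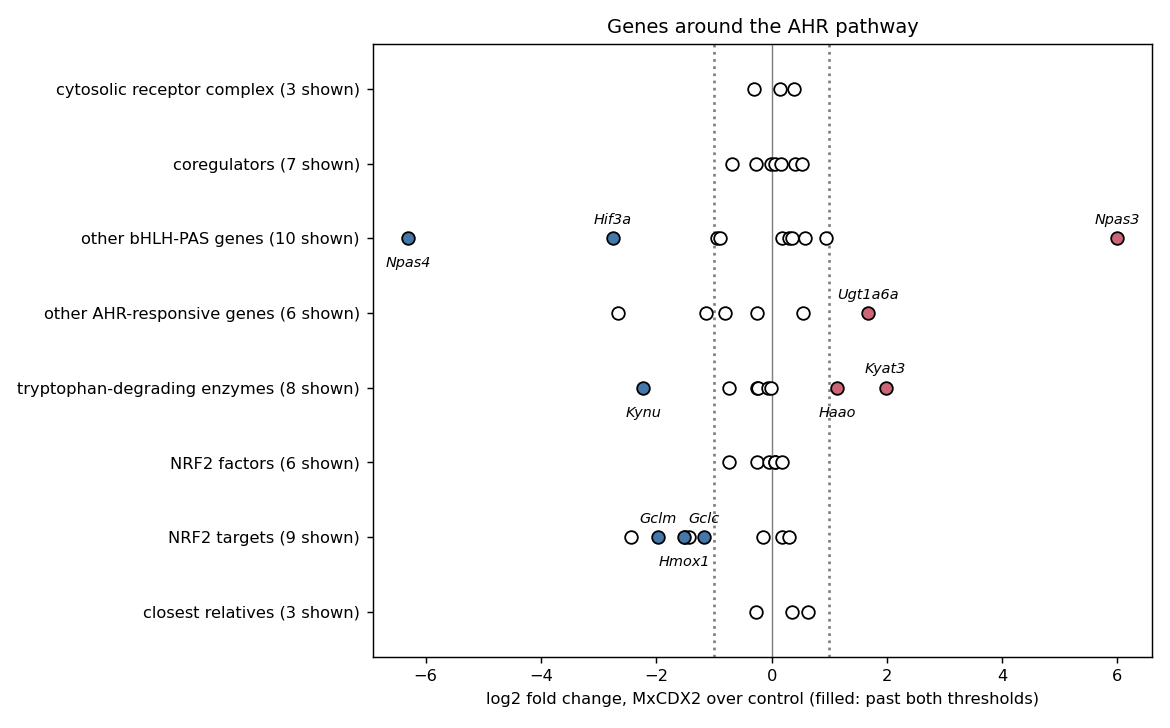
Log2 fold change of tested genes in 8 lists around the AHR pathway, filled where past both thresholds (red higher, blue lower in *MxCDX2*) and open where not, with dotted lines at -1 and 1. *Npas3* at 5.99 and *Npas4* at -6.31 are the outermost points, and the cytosolic complex and the NRF2 factors have no filled point.

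The genes with the pattern most like *Ahr* were sought among the 11982 genes averaging 100 or more normalized counts, by the root mean square difference of log2 values centred on each gene's mean over the 6 mice. They were *Gpt2* (0.22), *Clec4e* (0.22), *Rab7b* (0.24), *Plekhg6* (0.24) and *Gpr35* (0.25), which share with *Ahr* a high value in control mouse 1 among the controls and in *MxCDX2* mouse 1 among the *MxCDX2* mice. *Clec4e*, a lectin receptor of myeloid cells, had 10154, 4736 and 3922 normalized counts in the controls against 12697, 9014 and 11778 in the *MxCDX2* group. For *Nqo1* the closest were *Pheta2* (0.10), *Ube2o* (0.11), *Epdr1* (0.13), *Fech* (0.15) and *Cela1* (0.17). *Fech* encodes the last enzyme of heme synthesis and *Ube2o* a ubiquitin ligase that clears proteins from maturing red cells, and their log2 fold changes were -2.80 and -2.79. The points of each pattern share the same 6 libraries.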

How the data were processed

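Bone marrow RNA of 6 mice was sequenced as stranded mRNA libraries. The authors aligned the reads with STAR 2.5 to GRCm38, counted them per gene with HTSeq 0.6.1 and deposited raw counts without normalization. The strand setting of the counting is not given in the sources used here. The 5 summary lines of HTSeq were left out, of which reads outside genes made up 9.22 to 14.1% and ambiguous reads 2.99 to 3.16% of each library.

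Symbols, positions and merged exon lengths were taken from GENCODE M21 (GRCm38), which named 37607 of 39179 identifiers. The main test was edgeR 4.0.16 in R 4.3.3 (TMM, default filterByExpr, glmQLFit and glmQLFTest) over 15980 genes, with DESeq2 1.42.0 and voom from limma 3.58.1 as alternatives. Other alternatives were the size factors of DESeq2 in edgeR, library totals in place of TMM, and the 10 most abundant genes dropped from scaling and test. Further ones were at least 1 count in any mouse, at least 10 counts in every mouse, and each mouse left out. Standard errors were derived from the F statistic, and 95% intervals from its degrees of freedom. Permutation tests used log2(normalized count + 1). The fitting steps were tested on simulated data. Replicates are single mice, and p-values of the fits set the group difference against the spread between mice. Among the controls this spread also holds differences of genotype. Tables and figures used Python 3.11.15, pandas 2.3.3 and matplotlib 3.10.9.

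The 6 genes and all lists were chosen with earlier results of these data known. Named were all members, the pathway genes past the thresholds or below the filter up to the 4 largest changes per list and direction, those needed to read a count, and the 5 genes closest in pattern to *Ahr* and *Nqo1*. The list totals include 2 genes whose own results are not reported here. Ratios to marker sums were added after the values were seen. Counting error weighs most on genes with few reads. The letters of the promoters were copied from RefSeq (GRCm38.p6).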

Additional observations from a re-analysis of the deposited data

How the results depend on the processing

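The fall of *Nqo1* passed the thresholds under all 13 alternatives. The number of AHR genes that passed was 1 under 6 of the 7 settings that kept all mice and 3 with DESeq2, which added *Ahr* (log2 fold change 1.13) and *Cyp1b1*. With 1 mouse left out it was 1 to 2, *Ahr* joining without control mouse 1 and *Cyp1b1* without control mouse 2, and the log2 fold change of *Ahr* ran from 0.79 to 1.59. That of *Arnt* changed sign with total counts only (0.10), with every gene of at least 1 count (0.0041) and among the fits without 1 mouse (-0.12 to 0.064). In those fits between 1205 and 2406 genes passed in all, 8 to 12 pathway genes, and 18 to 41 cell type markers. The fewest genes and markers passed without *MxCDX2* mouse 3, and without *MxCDX2* mouse 2 there were 22 markers. The cause of these shifts was not tested. Total counts only moved the median log2 fold change of all genes by 0.12. DESeq2 called 13 pathway genes, *Srxn1* and *Scin* being added, and total counts only left 10, with *Hmox1* at -1.43 (adjusted p = 0.0556). *Hmox1* passed in 1, *Kynu* in 3 and *Npas4* in 4 of the 6 fits without 1 mouse, and *Gclm*, *Gclc*, *Hif3a*, *Npas3*, *Kyat3*, *Haao* and *Ugt1a6a* in all 6. No paired analysis was possible because the labels give the control mice no replicate number shared with the *MxCDX2* mice, and the numbers 1 to 3 used here for the controls only name them. Genes below the filter on low counts, such as *Cyp1a1*, were not tested.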
